A study of Homo sapiens with 7 samples.

Results

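The 10 genes described here encode the core of the mTORC1 kinase complex, the switch that turns it on and the proteins through which stressed cells turn it off. They were chosen by name, with earlier results of these data known. Each was matched by its symbol to 1 Ensembl gene, so that 10 of the 62238 genes in the count tables are covered. MTOR is the kinase, RPTOR (raptor) is the scaffold that brings substrates to it, and DEPTOR is a subunit that inhibits it. RHEB is the small GTPase that activates the kinase at the lysosome, and TSC1 with TSC2 forms the complex that switches RHEB off. DDIT4 (REDD1) and the sestrins SESN1, SESN2 and SESN3 are induced by stress and dampen mTORC1. DDIT4 acts through the TSC complex, and the sestrins act through the GATOR complexes that pass on amino acid signals. ATF4, the transcription factor of the integrated stress response, is known to induce DDIT4 and SESN2.

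The study asked how RBM15, an RNA-binding protein of the spen family, acts on the RNA of MEG-01, a human megakaryoblastic leukemia cell line. RNA-seq libraries came from 1 control culture and from 2 knockdown cultures, 1 with the short hairpin RNA shRBM15#1 and 1 with shRBM15#2. The labels give the same state for all 3 of them: passage 5, lentiviral transgenes, RPMI-1640 medium with serum and harvest in exponential growth. The sequence of any hairpin in the control is not given in the labels. Another 4 libraries hold RNA that was precipitated with normal IgG or with anti-RBM15 antibody (RIP-seq), in pairs of libraries. The 2 hairpins are shown because they are the perturbation behind every RNA-seq comparison. Both matched the coding sequence of RBM15 on the plus strand of GRCh37, shRBM15#1 at chr1:110882526-110882545 and shRBM15#2 at chr1:110884588-110884607, and neither had a perfect match in any of the 171 annotated transcripts of the 10 genes. Their sequences were read from 5′ to 3′.
shRBM15#1: gcggaatacaagactctgaa
shRBM15#2: ccaatggttatgccattctt

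The 3 RNA-seq libraries held between 41629454 and 53230029 read counts on exon bins. A read that overlaps several bins can be counted in each of them, and the reads of a gene given below are sums of its bin counts. Reads that could be given to no gene came to 23.2% in the control against 32.0% (shRBM15#1) and 23.5% (shRBM15#2), as a share of these reads and the bin counts together. RBM15 itself, the targeted gene, had 80.2 CPM (read counts scaled to a common library size) in the control against 43.7 (shRBM15#1) and 40.7 (shRBM15#2), a log2 fold change of -0.93 (SE 0.23, adjusted p = 0.091). Of the defining markers of the megakaryocyte lineage, ITGA2B had 919 CPM, TAL1 236 CPM and GATA1 71.7 CPM in the control, while GP9 and PF4 stayed under 1 CPM in all 3 libraries. Markers of T cells, B cells and fibroblasts were low in every library, with summed levels of 3.14 to 3.64 CPM, 1.42 to 3.04 CPM and 1.01 to 6.55 CPM for the 3 genes of each list. Other lists were not low: the 3 epithelial markers (EPCAM, KRT8 and KRT18) summed to 158 CPM in the control, 105 and 109 CPM in the knockdown libraries, and the 2 monocyte markers (LYZ and CD14) to 35.6, 26.2 and 54.9 CPM. Their part in the results was not tested. Because there was 1 control culture, the spread in every test below came from the 2 knockdown cultures alone, and a difference between cultures cannot be told apart from an effect of the knockdown. In cells in bulk, fewer expressing cells and less RNA per cell cannot be told apart either.

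The 10 genes were all expressed, and all passed the filter of 30 reads summed over the 3 libraries. Levels between genes were compared as RPKM, that is read counts scaled both to library size and to the summed length of the exon bins. In the control, DDIT4 was the most abundant at 85.3 RPKM, 4.84 times the level of the next gene, RHEB, at 17.6 RPKM. SESN2 followed at 11.9, MTOR at 11.1, RPTOR at 8.89 and DEPTOR at 7.86 RPKM. TSC1 had 5.26, SESN3 4.82, TSC2 4.03 and SESN1 2.36 RPKM. With 1 control library this order has no replicate spread. Because a read can be counted in several bins, genes with many short bins can have raised levels in this order. From RHEB to SESN1 each gene lay within 1.71-fold of the next, and the order of neighbours in this stretch was not tested. The 2 knockdown libraries differed by up to 1.73-fold in the level of 1 gene (SESN1), which is a difference between hairpin lines and not between control cultures.

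In the knockdown lines DDIT4 was no longer far above the others, at 18.3 RPKM with shRBM15#1 and 17.2 RPKM with shRBM15#2, while RHEB had 14.1 and 19.1 RPKM. SESN2 went from the third place in the control to the eighth with shRBM15#1 and to the last with shRBM15#2. The levels of all 10 genes together summed to 159 RPKM in the control, 71.5 RPKM with shRBM15#1 and 74.8 RPKM with shRBM15#2. DDIT4 alone made up 85.3, 18.3 and 17.2 RPKM of these sums, in the same order.

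**Figure D1:**
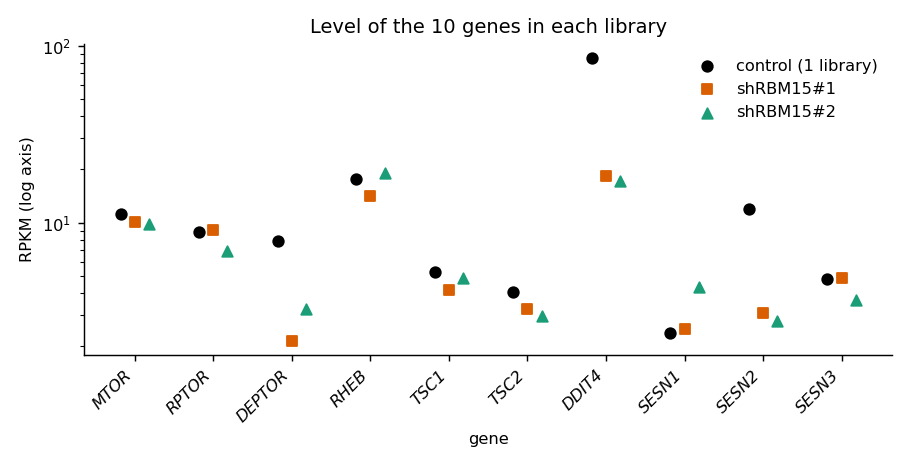
Level of each of the 10 genes in RPKM, on a log axis, in the control library (circles) and in the shRBM15#1 (squares) and shRBM15#2 (triangles) libraries, 1 point per library. DDIT4, SESN2 and DEPTOR have both knockdown points well below the control point, and DDIT4 falls from 85.3 RPKM to 18.3 and 17.2 RPKM.

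Of the 10 genes, 2 fell and none rose at an adjusted p under 0.01, against 0.277% of the 24887 tested genes that were called lower. At an adjusted p under 0.05 the same count of 2 was reached, against 1.2% of all genes. Because the 10 genes were chosen with earlier results of these data known, these counts are a description only. Both genes that fell, DDIT4 and SESN2, are stress inhibitors of mTORC1. At an unadjusted p under 0.05 (edgeR), 3 of the 10 genes were lower, DEPTOR being the other, against 2281 of the 24887 tested genes. In either direction 18.8% of all genes passed that limit. The median log2 fold change over the 10 genes was -0.21, and over all genes it was 0.02.

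DDIT4 (ENSG00000168209, chr10:74033678-74035794, GRCh37) had 8691 reads in the control against 1690 (shRBM15#1) and 1845 (shRBM15#2). Scaled to library size this was 175.6, 37.8 and 35.4 CPM, so that both knockdown libraries lay far below the control and close to each other. The gene was 4.80-fold lower, with a log2 fold change of -2.26 (SE 0.22, 95% interval -2.76 to -1.77, adjusted p = 0.0032). It ranked 23 by p-value and 116 by size of decrease among the 24887 genes. It ranked 48 by size of decrease among the 9318 genes with a mean of at least 10 CPM.

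SESN2 (ENSG00000130766, chr1:28586038-28609002), a leucine-binding sestrin, had 2036 reads in the control against 474 (shRBM15#1) and 502 (shRBM15#2), or 41.1, 10.6 and 9.62 CPM. Again the 2 knockdown libraries were close together and below the control. SESN2 was 4.07-fold lower, with a log2 fold change of -2.03 (SE 0.26, 95% interval -2.62 to -1.43, adjusted p = 0.0098). Its adjusted p lay just inside the limit of 0.01. With only genes of at least 300 summed reads tested, the adjusted p was 0.018 for DDIT4 and 0.033 for SESN2.

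**Figure D2:**
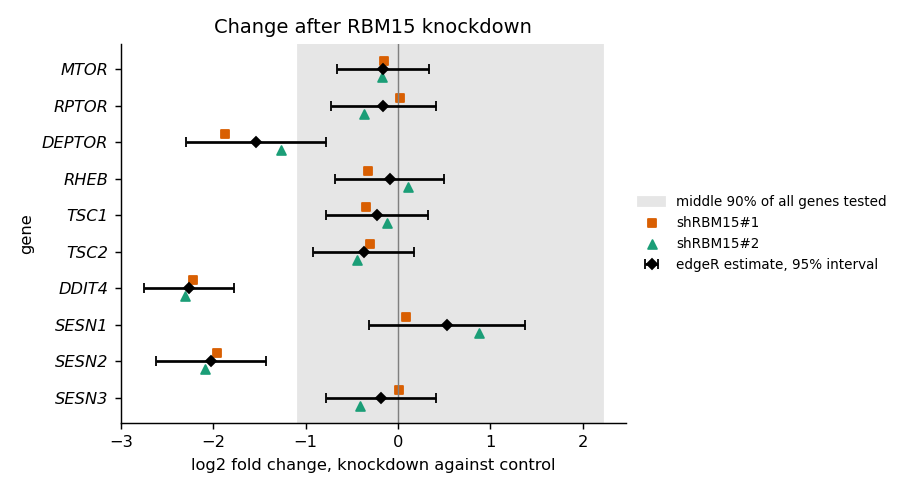
Log2 fold change of each gene against the control, for shRBM15#1 (squares), shRBM15#2 (triangles) and the edgeR estimate over both (diamonds) with its 95% interval, with the range of the middle 90% of all 24887 tested genes (-1.08 to 2.22) in grey. The intervals of DDIT4, SESN2 and DEPTOR lie wholly below 0, and those of the other genes cross 0.

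The promoters of DDIT4 and SESN2 are shown because both genes fell together and both are known targets of stress factors. The 250 bases before the annotated start were taken from RefSeq (GRCh38.p14), in which 9 of the 10 genes had an entry. Capitals mark 3 short motifs searched on both strands: TGATGNAA, a form of the composite site for C/EBP and ATF factors, ACGTG, the core of the hypoxia response element, and CCAAT. DDIT4 lies at chr10:72273674-72273923 and SESN2 at chr1:28259268-28259517, both on the plus strand.
DDIT4: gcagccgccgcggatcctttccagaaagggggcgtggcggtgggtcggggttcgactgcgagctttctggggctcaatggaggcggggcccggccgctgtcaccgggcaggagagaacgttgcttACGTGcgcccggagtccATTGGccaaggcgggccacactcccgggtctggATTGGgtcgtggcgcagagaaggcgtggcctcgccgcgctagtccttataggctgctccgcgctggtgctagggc
SESN2: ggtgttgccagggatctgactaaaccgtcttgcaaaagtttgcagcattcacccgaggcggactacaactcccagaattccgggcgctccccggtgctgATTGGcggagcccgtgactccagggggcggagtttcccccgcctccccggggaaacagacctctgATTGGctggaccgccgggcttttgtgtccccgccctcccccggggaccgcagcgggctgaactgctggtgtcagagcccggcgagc

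Both promoters held CCAAT in 2 places on the opposite strand (printed as ATTGG), starting 108 and 75 bases before the start in DDIT4 and 151 and 86 bases before it in SESN2. CCAAT was in 32.0% of all 35116 promoter windows and in 5 of the 9 genes with an entry. ACGTG was found in DDIT4, 125 bases before the start, and not in SESN2. It was in 18.5% of all windows and in 3 of the 9 genes. TGATGNAA was in neither promoter, in 3.1% of all windows and in 1 of the 9 genes. A match is a string of letters and not a measured binding site.

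Neither of the other sestrins was called, and the difference between sestrins was not tested. SESN1 (ENSG00000080546, chr6:109307640-109416022) had 597 reads in the control against 572 (shRBM15#1) and 1154 (shRBM15#2), or 12.1, 12.8 and 22.1 CPM. The library with shRBM15#2 was thus high and that with shRBM15#1 lay near the control, and the log2 fold change of 0.53 had an interval that crossed 0 (-0.31 to 1.38, adjusted p = 0.47). SESN3 (ENSG00000149212, chr11:94898704-94965705), a sestrin known to be induced by FOXO factors, had 2474, 2249 and 1965 reads in the same order, or 4.82, 4.84 and 3.63 RPKM. The shRBM15#1 library lay at the control level and the shRBM15#2 library below it, with a log2 fold change of -0.19 (-0.79 to 0.41, adjusted p = 0.75).

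Within the kinase complex, DEPTOR (ENSG00000155792, chr8:120885957-121063152) had the largest difference. It had 1020 reads in the control against 252 (shRBM15#1) and 445 (shRBM15#2), or 20.6, 5.63 and 8.53 CPM. Both knockdown libraries were below the control, and they differed from each other by 1.52-fold. The log2 fold change was -1.54 (SE 0.33, 95% interval -2.30 to -0.78), a 2.91-fold lower level, but the adjusted p of 0.062 missed both limits. DEPTOR passed the limit of 0.05 with another scaling of the libraries (median-ratio size factors, adjusted p = 0.042), and passed the limit of 0.01 with no filter on low counts (7.5e-04) and in DESeq2 (0.0065).

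MTOR (ENSG00000198793, chr1:11166592-11322564) had 6669 reads in the control against 5441 (shRBM15#1) and 6231 (shRBM15#2). At 134.8, 121.5 and 119.4 CPM, the 3 libraries lay close together, and the log2 fold change was -0.16 (95% interval -0.66 to 0.34, adjusted p = 0.74). RPTOR (ENSG00000141564, chr17:78518619-78940171) had 4130, 3804 and 3362 reads, or 83.5, 85.0 and 64.4 CPM, so that 1 knockdown library stood at the control level and the other below it. Its log2 fold change was -0.16 (-0.73 to 0.41, adjusted p = 0.78). The intervals of both genes leave room for a decrease to 0.66 or 0.73 on the log2 scale, and a missed limit does not show that their level was the same.

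The 3 genes of the RHEB switch were each slightly lower in the joint estimate. RHEB (ENSG00000106615, chr7:151163098-151217206) had 3087 reads in the control against 2232 (shRBM15#1) and 3520 (shRBM15#2), or 62.4, 49.9 and 67.5 CPM, and the control lay between the knockdown libraries. Its log2 fold change was -0.09 (95% interval -0.68 to 0.50, adjusted p = 0.89), and with at least 300 summed reads the sign turned to 0.05. TSC1 (ENSG00000165699, chr9:135766735-135820020), the scaffold of the complex, had 2579, 1840 and 2504 reads, or 52.1, 41.1 and 48.0 CPM, with a log2 fold change of -0.23 (-0.78 to 0.32, adjusted p = 0.66).

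TSC2 (ENSG00000103197, chr16:2097466-2138716), the subunit with the GTPase-activating domain for RHEB, had 2216 reads in the control against 1623 (shRBM15#1) and 1714 (shRBM15#2), or 44.8, 36.3 and 32.9 CPM. Both knockdown libraries were below the control, by a log2 fold change of -0.37 whose interval reached from -0.93 to 0.18 (adjusted p = 0.44). The span of TSC2 overlaps PKD1, which had 4354, 1532 and 1846 reads, and NTHL1, which had 613, 347 and 516 reads. The RNA-seq libraries carry no strand information, and 4 of the 97 exon bins of TSC2 overlap bins of these genes, so that reads in those bins cannot be assigned to 1 gene with certainty. The part of PKD1 in the TSC2 value was not tested.

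The genes around these 10 in the pathway were taken from a list of 69, of which 68 passed the filter (CASTOR2, the paralog of an arginine sensor, had 9, 4 and 4 reads). None of the 68 was called at an adjusted p under 0.05 by edgeR, against 1.74% of all genes called in either direction, and none by DESeq2. At an unadjusted p under 0.05 there were 12, 2 higher and 10 lower, which is 17.6% of the list against 18.8% of all genes. With no filter on low counts 3 were called, all lower, namely the translational repressor EIF4EBP1, the adaptor GRB10 and the shared mTOR subunit MLST8. The median log2 fold change of the list was -0.11, with 27 genes higher and 41 lower.

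The 3 largest decreases on the list were in TFEB, PRKAA2 and RRAGD, none of them past the limit. TFEB, a transcription factor for lysosomal genes that mTORC1 keeps in the cytoplasm, had 3.11 CPM in the control against 1.47 (shRBM15#1) and 1.34 (shRBM15#2) (log2 fold change -1.14, adjusted p = 0.21). PRKAA2, a catalytic subunit of AMPK, had 8.63, 3.24 and 5.50 CPM (-0.98, adjusted p = 0.24). RRAGD, a Rag GTPase, had 19.2, 9.14 and 10.8 CPM (-0.94, adjusted p = 0.15). DDIT4L and PRR5 were among the 3 largest increases. DDIT4L, the paralog of DDIT4, rested on few reads, with 4, 9 and 17 (1.68, adjusted p = 0.43). PRR5, a subunit of the other mTOR complex, had 6.61, 14.0 and 12.6 CPM (1.01, adjusted p = 0.16).

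By role, the downstream targets of mTORC1 had the lowest group median on this list (-0.45, 12 of 17 lower) and the 8 other complex subunits and assembly factors had one of 0.35, with 6 higher and 2 lower. The Rag and Ragulator genes, which hold the complex at the lysosome, had a median of -0.14 over 9 genes, and the GATOR and KICSTOR genes had one of -0.12 over 12. No member of any of these groups was called.

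Factors known to act on DDIT4 and the sestrins, and their other known targets, were followed in a list of 26 genes, all tested. At an adjusted p under 0.05, 12 of them fell and none rose, against 1.2% of all genes called lower. The median log2 fold change was -1.19. This list was chosen with earlier results of these data known, so that its counts are a description and not independent support. All 10 other targets of ATF4 were among the 12. At the limit of 0.01, 4 were called. TRIB3, a pseudokinase of the stress response, had 208 CPM in the control against 18.7 (shRBM15#1) and 21.6 (shRBM15#2) (log2 fold change -3.37, adjusted p = 0.0010). PHGDH, the first enzyme of serine synthesis, had 639, 143 and 104 CPM (-2.37, adjusted p = 0.0045). CTH, of cysteine synthesis, changed by -1.93 and ASNS, asparagine synthetase, by -1.86 on the log2 scale (adjusted p = 0.0055 and 0.0085).

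The other ATF4 targets that fell were VLDLR (-2.50), CHAC1 (-1.91), PSAT1 (-1.74), SLC7A11 (-1.56), ATF5 (-1.48) and ATF3 (-1.35). They encode a lipoprotein receptor, a glutathione-degrading enzyme, a serine synthesis enzyme, a cystine transporter and a pair of transcription factors. The remaining calls were the stress factor DDIT3 (CHOP, -1.75) and the apoptosis regulator BBC3 (PUMA, -1.62). ATF4 itself had 330 CPM in the control against 170 (shRBM15#1) and 158 (shRBM15#2) (-1.01, adjusted p = 0.059), and was not called.

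CDKN1A, an inhibitor of cyclin-dependent kinases, had 6.10 CPM in the control against 8.58 (shRBM15#1) and 26.5 (shRBM15#2) (1.53, adjusted p = 0.22). FOXO1 had 1.62, 6.92 and 2.63 CPM (1.56, adjusted p = 0.22), and HIF1A, the hypoxia factor, had 59.2, 82.0 and 113 CPM (0.72, adjusted p = 0.21). These are the 3 largest increases on the list, and in each the 2 knockdown libraries stood apart from each other.

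**Figure D3:**
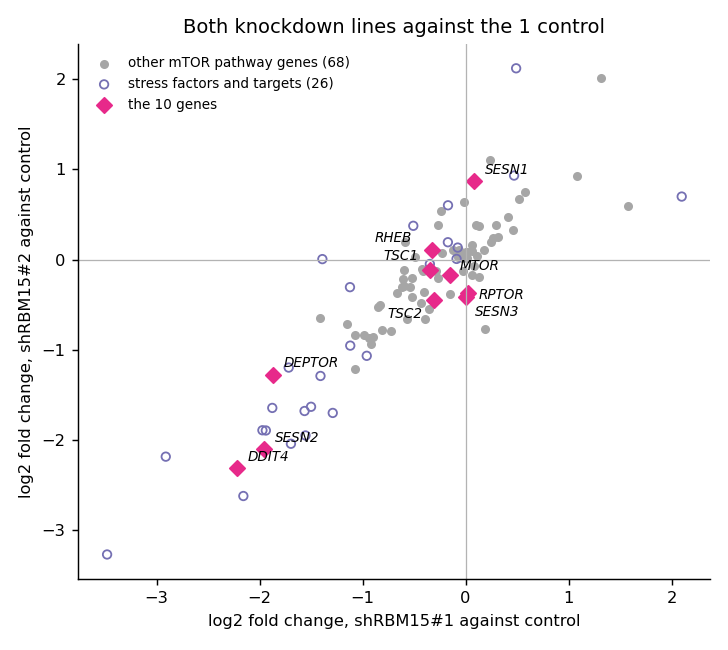
Log2 fold change against the 1 shared control library for shRBM15#1 (horizontal axis) and shRBM15#2 (vertical axis), for the 10 genes (diamonds), 68 other genes of the mTOR pathway (grey) and 26 stress factors and targets (open circles). DDIT4, SESN2 and DEPTOR lie in the lower left beside many of the stress genes, and both axes share the control library.

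The genes whose pair of changes was nearest to that of DDIT4, among the 9208 genes compared (mean of at least 10 CPM) and over 3 libraries, were STC2, BEX2 and LRATD2. STC2, a secreted glycoprotein, changed by -2.26 with shRBM15#1 and -2.33 with shRBM15#2 on the log2 scale, against -2.22 and -2.31 for DDIT4, a Euclidean distance of 0.050. BEX2 and LRATD2 lay at distances of 0.11 and 0.16. For SESN2, with changes of -1.96 and -2.10, the nearest were WARS1, the cytoplasmic tryptophanyl-tRNA synthetase (distance 0.11), RPS6KA2, a ribosomal S6 kinase (0.11), and PLD1, a phospholipase D (0.19).

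Exon usage was examined because the study asked whether RBM15 bears on splicing. The 10 genes are divided into 349 exon bins, of which 266 had at least 30 reads over the 3 libraries and were tested against the change of their gene. None of the 266 passed the limits of a fold above 1.2 with an unadjusted p under 0.05, against 1.45% of the 234192 bins tested in all genes. None had an adjusted p under 0.05, which 0.0205% of all bins had. The smallest unadjusted p of a bin was 0.057 (edgeR), and the adjusted p was 1 for the bins and flanking bins named below. In comparison, 15.2% of the 12893 genes with tested bins held at least 1 bin past the limits. The median size of the change, without its sign, was 0.17 over the 266 bins and 0.15 over all bins, on the log2 scale. The study named RPTOR among genes with RIP-seq sites whose exon usage changed in both of its programs, DEXSeq and MISO. Neither program was run here, so that the lack of called RPTOR bins is not a repeat of its test.

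The decreases of DDIT4 and SESN2 ran through the whole of each transcript. All 7 tested bins of DDIT4 and all 10 of SESN2 were lower in both knockdown lines, as were all 10 of DEPTOR. Relative to the gene, the bins of DDIT4 lay between -0.32 and 0.14 and those of SESN2 between -0.23 and 0.22 on the log2 scale. The largest bin of DDIT4 by reads held 37.9% of its reads in the control against 37.4% (shRBM15#1) and 37.5% (shRBM15#2). The last bin of SESN2 held 37.6%, 37.8% and 39.0% of its reads in the same order.

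The bins nearest to the limits were in MTOR, TSC2 and SESN1. An exon bin of MTOR (chr1:11189795-11189895) had 60 reads in the control against 90 (shRBM15#1) and 77 (shRBM15#2). It held 0.90% of the reads of the gene (95% Wilson interval 0.70 to 1.16), then 1.65% (1.35 to 2.03) and 1.24% (0.990 to 1.54), a relative log2 change of 0.68 (SE 0.24). A bin of TSC2 (chr16:2125800-2125893) had 38, 16 and 13 reads and a relative log2 change of -0.94 (SE 0.41). In SESN1 a bin of 66 bases (chr6:109323481-109323546) had 13 reads in the control against 36 (shRBM15#1) and 57 (shRBM15#2), or 2.18%, 6.29% and 4.94% of the gene, with a relative log2 change of 1.33 (SE 0.76). Its share was higher in both lines, but rested on 13 reads in the control. The intervals cover counting error only, with each bin count taken as a separate read.

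**Figure D4:**
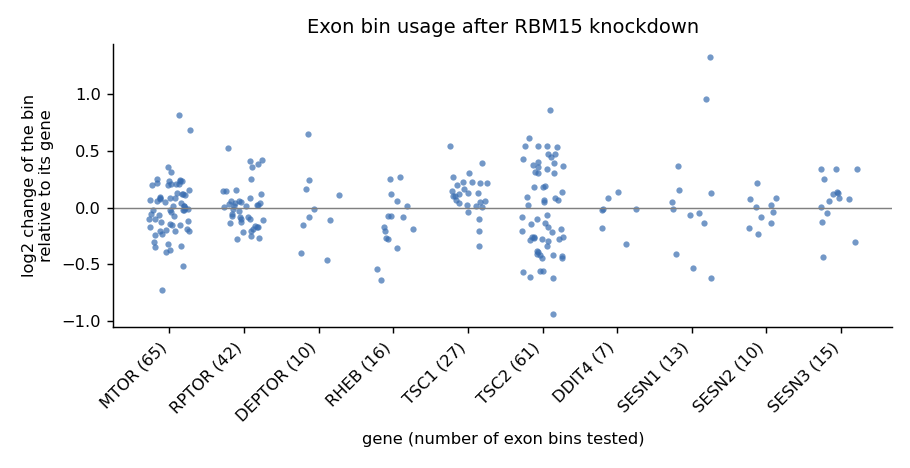
Log2 change of each tested exon bin relative to the change of its gene, 1 point per bin, with the number of tested bins beside each gene (266 in all). The points lie between -0.94 (TSC2) and 1.33 (SESN1), none passed the limits, and the bins of DDIT4 and SESN2 stay close to 0.

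In the RIP-seq data the authors listed 1515 sites, which they had selected for more reads with anti-RBM15 than with normal IgG. The read counts split by replicate number rather than by antibody label. Over all 1515 sites the library labelled normal IgG replicate 1 had 28387 reads and that labelled normal IgG replicate 2 had 610915, while the library labelled anti-RBM15 replicate 1 had 28845 and that labelled anti-RBM15 replicate 2 had 807871. At every one of the 1515 sites, IgG-labelled replicate 2 had more reads than RBM15-labelled replicate 1. Within replicate 2 the library labelled anti-RBM15 had more reads in total and at all 5 sites of RPTOR described here. As a share of each library's reads over all 1515 sites, it was lower at the RPTOR site in intron 10 and higher at the rest. RBM15-labelled replicate 1 had more reads than IgG-labelled replicate 1 at 659 of the 1515 sites. The totals of the whole libraries are not analysed here. Whether the pairs differ in depth or labels were exchanged was not tested. Counts are therefore given library by library, without a comparison of antibodies, and no enrichment is read from them.

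Of the 10 genes, RPTOR alone held listed sites, against 3.76% of the 24122 tested genes with a symbol that held at least 1. RPTOR had 5 sites, and 16 of the 1014 genes with sites had 5 or more. The gene spans 34 exons in its canonical transcript, and all 5 sites are on its plus strand in GRCh37. The first lies in exon 1 (chr17:78519264-78519581), where 166 of its 318 bases are 5′ untranslated and 152 are coding. It had 50 and 506 reads in the libraries labelled normal IgG (replicates 1 and 2) and 49 and 675 in those labelled anti-RBM15. Few sites of this kind were listed, since 7 of the 1515 were annotated as 5′ untranslated by the authors.

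The other 4 sites are intronic, as were 752 of the 1515. The site in intron 24 (chr17:78903943-78904313), which lies 4663 bases past the upstream exon and 9983 bases before the next, had 48 and 522 reads with the IgG label and 47 and 712 with the RBM15 label. The site in intron 10 (chr17:78814382-78814702) had 18, 254, 20 and 302 reads in the same order of libraries. That in intron 5 (chr17:78716305-78716710) had 8, 248, 6 and 388 reads, and that in intron 7 (chr17:78785395-78785746) had 8, 176, 9 and 239. In each of the 5 sites both replicates numbered 2 were high and both replicates numbered 1 were low. No intronic site was within 2 kb of an exon of the canonical transcript, the nearest distance being 2585 bases in intron 10.

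**Figure D5:**
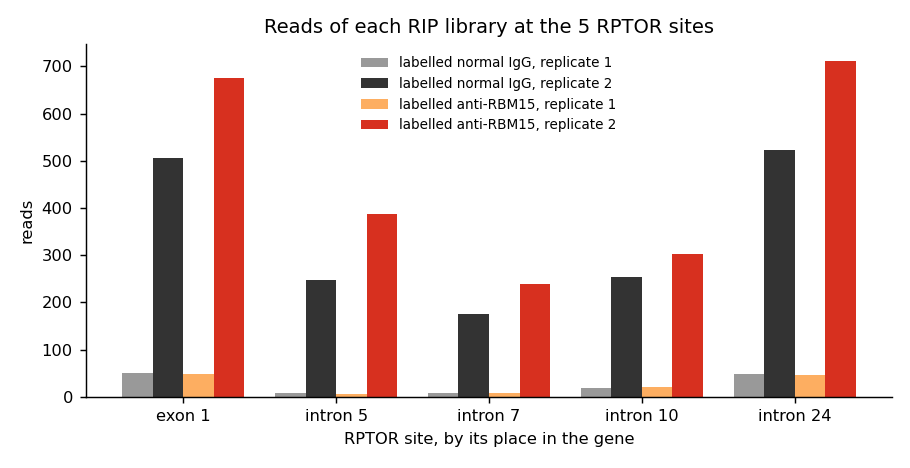
Reads of the 4 RIP-seq libraries at the 5 listed sites of RPTOR, by place in the gene, with bars coloured by the antibody label and replicate. At each site the libraries labelled replicate 2 (176 to 712 reads) are far above those labelled replicate 1 (6 to 50 reads), whichever antibody the label gives.

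The middle 120 bases of the 4 intronic sites are shown because those in introns 7, 10 and 24 consist of a unit in tandem copies, a feature that the selection of the genes did not use. That in intron 5 is rich in CA. They were read from the GRCh37 reference on the plus strand, and capitals mark 1 copy of the unit, at the spacing at which the site best matched itself. They lie at chr17:78716447-78716566, chr17:78785510-78785629, chr17:78814482-78814601 and chr17:78904068-78904187.
RPTOR intron 5: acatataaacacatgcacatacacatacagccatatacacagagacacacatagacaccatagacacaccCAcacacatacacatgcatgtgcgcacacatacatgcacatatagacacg
RPTOR intron 7: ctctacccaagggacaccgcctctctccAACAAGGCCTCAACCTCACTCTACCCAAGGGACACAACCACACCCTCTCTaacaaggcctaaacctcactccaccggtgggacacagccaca
RPTOR intron 10: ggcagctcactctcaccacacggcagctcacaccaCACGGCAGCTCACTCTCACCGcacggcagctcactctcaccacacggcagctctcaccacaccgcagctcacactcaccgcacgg
RPTOR intron 24: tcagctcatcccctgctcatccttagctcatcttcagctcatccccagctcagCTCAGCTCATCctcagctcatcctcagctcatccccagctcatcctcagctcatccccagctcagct

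The repetition was measured as the highest share of bases equal to the base a fixed spacing further on, for spacings of 2 to 60 bases. The site in intron 24 matched itself in 81.9% of bases at a spacing of 11, the site in intron 10 in 81.0% at 21 and the site in intron 7 in 79.8% at 50. The site in intron 5 reached 54.0% at a spacing of 2 and ranked 267 among the 752 intronic sites. Over all 752 intronic sites the median was 44.4%, with 90% of sites between 31.8% and 75.7%, and the 3 most repetitive RPTOR sites ranked 18, 21 and 24 among them. In 1504 windows of the same width placed 2 kb before and after these sites the median was 33.1% and the 95th percentile 40.4%. Around the sites in introns 7, 10 and 24 these windows had 32.0% to 34.8%, but the window after the site in intron 5 had 92.0%, above the site itself, and the window before it 35.8%. Reads from tandem copies can align in more than 1 place, and its part in these counts was not tested.

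The GC content of the RPTOR intronic sites was 39.7% in intron 5, 59.1% in intron 7, 62.9% in intron 10 and 58.8% in intron 24, against a median of 49.6% over all intronic sites. The strand as transcribed was poor in T in introns 7 and 10 (12.8% in each, against a median of 25.2%).

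The exon bins beside the RIP-seq sites of RPTOR showed relative changes smaller than their SE. The bins before and after the site in intron 10 held 1.94% and 2.25% of the reads in the control, 1.60% and 2.23% with shRBM15#1 and 1.81% and 2.26% with shRBM15#2 (relative log2 changes of -0.20 and -0.01). Around intron 7 the relative changes were 0.25 and 0.42. Around intron 5 the nearest tested bins gave -0.10 and -0.08, and the bin directly after the site, with 2, 5 and 0 reads, was below the filter. Around intron 24 they gave 0.05 and 0.53, the second of these on 11, 15 and 13 reads. The 3 bins that overlap the site in exon 1 lay between -0.11 and 0.08 on the same scale. At these depths the SE of a bin ran from 0.36 to 0.83, so that small shifts in usage were not detectable.

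Elsewhere in the pathway, 6 of the 69 other mTOR genes held 7 listed sites: the GATOR subunit SEC13, the leucine sensor LARS1, GRB10, the translation inhibitor PDCD4, PRR5 and, with 2 sites, the assembly factor TTI1. Of the 26 stress genes, SLC7A11 and PSAT1 held 1 each. DDIT4, SESN2 and DEPTOR, the genes with the largest differences in level, held none. The site of LARS1 had 56 and 702 reads with the IgG label and 52 and 785 with the RBM15 label, the same pattern of high and low libraries as in RPTOR.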

How the data were processed

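The 10 genes and the lists were chosen with earlier results of these data known. For RNA-seq the authors aligned reads to GRCh37 with STAR and deposited whole-number counts per exon bin (Ensembl release 70). Bin counts were summed per gene here, so that a read overlapping several bins can enter a gene more than once. For example, adjacent bins of RHEB of 6 and 4 bases each held 139 reads in the control. Genes with at least 30 reads in all 3 libraries together were tested with edgeR 4.0.16 (TMM scaling, quasi-likelihood test, 1 residual and 8.78 moderated degrees of freedom), with Benjamini-Hochberg adjusted p over all tested genes. Fold changes of a single line are ratios of CPM. Exon bins were tested with the diffSpliceDGE function of edgeR. For RIP-seq the authors deposited raw read counts per library at their selected sites. Sites were assigned by the authors' gene symbol. The columns of the authors' own comparisons (fold changes, p-values and exon usage coefficients) were not used, nor were 3 further columns of per-sample values. Intervals of fold changes (95%) rest on a variance moderated across all tested genes. The spread of the gene itself between the 2 knockdown cultures enters it only in part. They hold no spread between control cultures.

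Named genes were the 10, RBM15, the called genes of each list with the 3 largest changes in each direction, and for DDIT4 and SESN2 the 3 genes nearest by Euclidean distance. Genes named for other reasons were chosen after their values were seen. Alternatives were median-ratio (RLE) size factors, other count filters, DESeq2 1.42.0, leaving out each knockdown line, and other site assignments. The fits were tested on simulated data first. Of the 22 cell markers 21 were matched. Results for some list genes are not reported here.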

Additional observations from a re-analysis of the deposited data

Results flagged for a closer look

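In RPTOR, RHEB and SESN3 the 2 knockdown lines lay on opposite sides of the 1 control library. The log2 fold change with shRBM15#1 minus that with shRBM15#2 was 0.40 in RPTOR (0.03 and -0.37), -0.44 in RHEB (-0.32 and 0.11) and 0.42 in SESN3 (0.01 and -0.41). With 1 library per line the difference between the lines was not tested.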

How the results depend on the processing

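No paired analysis was possible because the control has 1 library and shares fewer than 2 replicate numbers with the knockdown group. Leaving out 1 knockdown line leaves 1 library on each side, so those fits give values without a test: the log2 fold change was -2.31 to -2.21 for DDIT4, -2.10 to -1.95 for SESN2 and -1.86 to -1.27 for DEPTOR. Of the 10 genes, 2 were called at 0.01 with RLE size factors, 3 with no filter, 3 by DESeq2 and 0 with at least 300 summed reads, where 0 of all genes were called. The count over all genes at 0.01 was 86, and became 191 with RLE, 801 with no filter and 525 by DESeq2. At 0.05 it was 432, and became 1486 with no filter, 238 with at least 300 reads and 889 by DESeq2. The no-filter fit moved the median of all genes to 0.44, and the share of calls that were higher went from 19.8% to 34.3%, with 27.7% under RLE and 37.5% by DESeq2. The RHEB value turned to 0.047 with at least 300 reads (adjusted p = 0.92). Other mTOR pathway genes had 3 calls with no filter. Bins of at least 1 read gave 5 member bins past the limits, 1.48% of 338 against 1.77% of all bins, each with at most 1 read in the control. The number of RPTOR sites stayed at 5 when sites were assigned by overlap, and was 4 with at least 500 reads. Raising the count filter changes the genes tested. The cause of the other shifts was not tested.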
